A study of Homo sapiens with 2 samples.

Results

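The 9 genes described here encode proteins that crosslink actin filaments, pull on them and tie them to the cell membrane: the filamins FLNA and FLNC, the alpha-actinins ACTN1 and ACTN4, fascin (FSCN1), the nonmuscle myosin heavy chains MYH9 and MYH10, talin (TLN1) and vinculin (VCL). They were taken by name, with Ensembl identifiers matched to GENCODE 29 symbols, and all 9 were among the 13420 genes averaging 1 FPKM or more (fragments scaled by transcript length and library total) out of 60774 identifiers. RNA came from MDA-MB-231, a triple-negative breast cancer cell line of mesenchymal shape. There was 1 library of vector control cells (called the vector library) and 1 of cells over-expressing YWHAB, an adaptor protein that binds phosphorylated partners (the YWHAB library). The sources used here do not say which promoter drove it or whether the cells were a single clone. The study, by its title, is about the movement of these cells with extra YWHAB. The labels' protocol fields also mention fat cell differentiation and retinas, and these were not taken as facts about these libraries.

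In a crawling cell, actin filaments are woven into networks by filamins and bundled by alpha-actinins and fascin, with fascin found above all in the finger-like filopodia and invadopodia. Nonmuscle myosin II, built from heavy chains and small light chains, slides filaments past each other and contracts the network. Talin links integrins to actin at focal adhesions, and vinculin binds stretched talin and strengthens the link.

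Fascin was lower in the YWHAB library and the other 8 genes were higher, at ratios from 1.14 to 1.66. Of all genes compared 53.2% were higher. The share was 69.1% among protein-coding genes in the longest of 5 equal groups by longest transcript. It was 80.7% among those in that group averaging 100 FPKM or more. MYH9 and FLNA were the furthest above the vector library, the actinins followed, and MYH10, FLNC, TLN1 and VCL were closest to it. No gene was 2-fold higher, where a difference of log2(FPKM + 1) of at least 1 counts as 2-fold, and 1 of the 9, FSCN1, was 2-fold lower. Among all genes compared 0.686% were 2-fold higher and 1.97% 2-fold lower, and among protein-coding genes 0.295% and 1.45%. Of the protein-coding genes averaging 100 FPKM or more 0.392% were higher and 1.41% lower by that rule. Of all protein-coding genes compared in the longest of 5 equal groups by longest transcript, 0.651% were higher and 0.347% lower. The median difference of the 9 genes was 0.30 on that log2 scale, against 0.03 over all genes compared. Each group has 1 library, so there is no replicate check and no test, and a condition cannot be told apart from its library. In RNA from whole cultures, fewer cells making a transcript and less RNA per cell also cannot be told apart.

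Depth was 12375999 fragments for the vector control and 13810668 for YWHAB. YWHAB itself was at 239 FPKM with the vector and 336 with YWHAB, a ratio of 1.41 (95% counting interval 1.36 to 1.45). That is a log2 difference of 0.49, short of 2-fold, 8.01% of the genes compared differed upward by as much, and MYH9, FLNA and ACTN4 differed by more. Of the line's usual markers, the mesenchymal genes VIM, CD44 and AXL were at 736, 697 and 453 FPKM with the vector and at 861, 998 and 668 with YWHAB. The estrogen receptor ESR1, the progesterone receptor PGR and epithelial cadherin CDH1 were each under 1 FPKM in both libraries, and ERBB2 was at 32.8 and 49.97 FPKM. None of 10 muscle markers and none of 8 retina markers reached a mean of 1 FPKM. Of 8 adipocyte markers 2 did, PPARG at 19.8 and 15.5 FPKM and LPL at 9.32 and 5.38 FPKM. Of 6 fibroblast markers 2 did, COL1A1 at 27.3 and 19.8 FPKM and PDGFRB at 10.0 and 12.7 FPKM. The summed level of the muscle markers was 1.30 and 0.654 FPKM, with MYOD1, MYOG, MYH2 and MYH7 listed at 0 in both libraries.

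**Figure D1:**
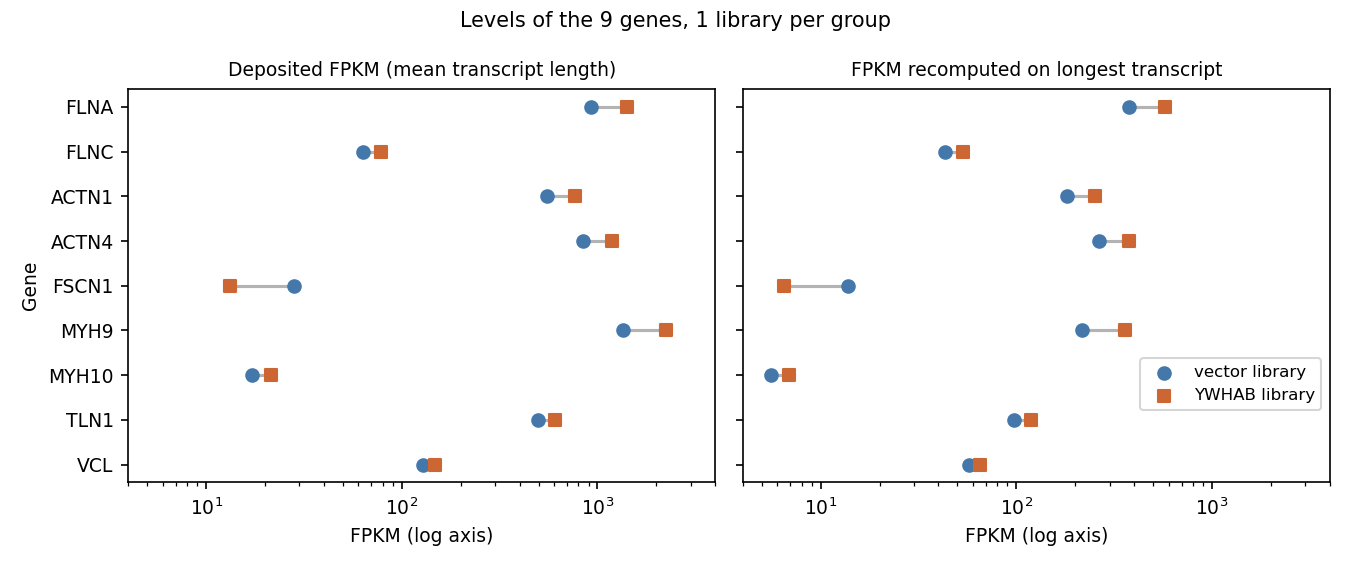
Level of each of the 9 genes in the vector library (circles) and the YWHAB library (squares), on a log axis in FPKM. The left panel shows the deposited values, where MYH9 is highest in both libraries (1356 and 2251 FPKM), and the right panel shows FPKM recomputed on the longest annotated transcript, where FLNA is highest (376 and 577 FPKM).

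Filamins are long flexible dimers that hold actin filaments at wide angles and dock many membrane receptors. FLNA (ENSG00000196924, chromosome X from 154348524 to 154374638 on the minus strand of GRCh38) was at 929.9 FPKM with the vector and 1424 FPKM with YWHAB, from 39680 and 67815 fragments. The ratio was 1.53 (counting interval 1.51 to 1.55), and 4.31% of the genes compared differed upward by as much. FLNC (ENSG00000128591, chromosome 7 from 128830377 to 128859274, plus strand), the filamin best known from muscle, was at 63.4 and 78.4 FPKM, from 4921 and 6782 fragments. Its ratio was 1.24 (1.19 to 1.28), and 20.3% of all genes were as far above. Both filamins were thus higher in the YWHAB library, FLNC by less than FLNA.

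Within a library, the ratio of a pair of genes does not depend on the total used for scaling. FLNA exceeded FLNC 14.7 times with the vector and 18.2 times with YWHAB on deposited FPKM, so their ratio was 1.24 times as large in the YWHAB library (1.19 to 1.29). On the longest annotated transcripts the FLNA to FLNC ratio was 8.70 and 10.8, so its level depends on the gene length used while its change does not.

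Alpha-actinins are antiparallel dimers that bundle actin filaments and lie along stress fibres and in adhesions. ACTN1 (ENSG00000072110, chromosome 14 from 68874143 to 68979440, minus strand) was at 549 FPKM with the vector and 764 FPKM with YWHAB, from 10504 and 16293 fragments, a ratio of 1.39 (1.36 to 1.42). ACTN4 (ENSG00000130402, chromosome 19 from 38647649 to 38731583, plus strand), which is also found in the nucleus, was at 842 and 1191 FPKM, from 16303 and 25752 fragments, a ratio of 1.42 (1.39 to 1.44). No shift between the actinins was detectable at this depth: the ACTN1 to ACTN4 ratio was 0.653 with the vector and 0.641 with YWHAB, and the change of 0.982 times had an interval of 0.952 to 1.01 that holds equality. The muscle actinins were near 0, with 32 and 18 fragments for ACTN2 and 1 in each library for ACTN3.

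Whether reads can tell the paralogs apart bears on these ratios, so the stretches where ACTN1 and ACTN4 are hardest to separate are shown. Their coding sequences in GENCODE 29 were 82.0% identical over 2662 aligned positions, and the longest run without a difference was 73 bases. The window of 120 coding bases around that run holds 5 differences, set in capitals (coding positions 941 to 1060 of ACTN1 and 998 to 1117 of ACTN4, counted from the A of the start codon in the longest coding sequence):
ACTN1: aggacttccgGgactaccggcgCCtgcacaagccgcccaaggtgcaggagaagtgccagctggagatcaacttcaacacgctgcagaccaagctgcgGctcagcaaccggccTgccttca
ACTN4: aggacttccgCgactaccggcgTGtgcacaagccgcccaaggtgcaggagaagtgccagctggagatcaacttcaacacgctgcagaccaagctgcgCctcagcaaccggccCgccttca
Such stretches were rare. Of the 50-base words in ACTN1 transcripts 4.10% (455 words) also occurred in another gene, 251 of them in the pseudogene HMGN1P3, which lies inside ACTN1 on the same strand and was listed at 0, and of those in ACTN4 transcripts 2.02% did. The share was 0.00893% for FLNA, 3.45% for FLNC (317 of 321 words with the locus AC025594.1), 0.506% for MYH9, 0 for MYH10, 0.787% for TLN1, 0.829% for VCL and 4.89% for FSCN1, where all of it lay in the pseudogene FSCN1P1. The sources used here do not say how reads matching several places were treated.

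Fascin packs filaments into tight straight bundles. FSCN1 (ENSG00000075618, chromosome 7 from 5592823 to 5606655, plus strand) was at 28.1 FPKM with the vector and 13.2 FPKM with YWHAB, from 475 and 249 fragments. Its ratio of 0.470 (0.401 to 0.549) gave a difference of -1.04, just past the 2-fold line, and the counting interval lies on both sides of a ratio of 0.5. Of all genes compared, 1.83% (246 genes) were as low. Relative to ACTN1, FSCN1 was at 0.338 times its vector level in the YWHAB library (0.289 to 0.395). Its difference lay between -1.11 and -1.01 in all 8 processing alternatives. FSCN2 had 8 fragments in each library and FSCN3 was listed at 0 in both.

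Nonmuscle myosin II heavy chains carry the motor. MYH9, the heavy chain of myosin IIA, lies on chromosome 22 from 36281277 to 36388067 on the minus strand (ENSG00000100345). It was at 1356 FPKM with the vector and 2251 FPKM with YWHAB, from 20277 and 37553 fragments. Its ratio of 1.66 (1.63 to 1.69) was the largest of the 9, and 2.44% of the genes compared differed upward by as much. Ranked by deposited FPKM, MYH9 was number 52 of all genes compared with the vector and number 17 with YWHAB. These ranks rest on a gene length of 1208 nt, 16.0% of its longest transcript. On the longest transcript MYH9 was at 217 and 359.96 FPKM. MYH10, the heavy chain of myosin IIB (ENSG00000133026, chromosome 17 from 8474205 to 8630761, minus strand), was at 17.1 and 21.3 FPKM, from 533 and 742 fragments, a ratio of 1.25 (1.11 to 1.40).

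Myosin IIA made up nearly all heavy chain RNA in both libraries. MYH9 held 97.2% of the fragments of MYH9, MYH10 and MYH14 in the vector library (96.96% to 97.4%) and 97.9% in the YWHAB library (97.7% to 98.03%), while MYH14, which encodes the heavy chain of myosin IIC, had 52 and 67 fragments. The ratio of MYH9 to MYH10 was 1.33 times as large in the YWHAB library (1.19 to 1.49). Its level depends on the gene length used: it was 79.3 and 105 on deposited FPKM, and 39.1 and 52.0 when computed on the longest annotated transcripts. The coding sequences were 73.7% identical, with a longest shared run of 31 bases. The window of 120 coding bases around that run, from the rod of the heavy chain, shows the stretch with their longest shared run, with 20 differences in capitals (positions 4271 to 4390 of MYH9 and 4385 to 4504 of MYH10):
MYH9: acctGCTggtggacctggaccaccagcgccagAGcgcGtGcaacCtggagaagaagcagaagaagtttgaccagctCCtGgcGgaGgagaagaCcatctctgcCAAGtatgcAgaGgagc
MYH10: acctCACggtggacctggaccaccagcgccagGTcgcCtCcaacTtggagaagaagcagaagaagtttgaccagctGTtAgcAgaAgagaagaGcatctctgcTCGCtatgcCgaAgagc

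Of the 5 light chain genes measured beside these heavy chains 1 was higher and 4 were lower in the YWHAB library. Among protein-coding genes 41.7% were higher in the shortest of 5 equal groups by longest transcript and 48.5% in the second. MYL9 belongs to the second group and the other light chain genes to the shortest. MYL6, the main essential light chain, was at 282 and 304 FPKM (ratio 1.08, 1.02 to 1.14). The regulatory light chain genes MYL9 (54.5 and 37.4 FPKM), MYL12A (175 and 126) and MYL12B (275 and 247) were lower in the YWHAB library, as was MYL6B (59.6 and 46.9), except that MYL12B was at a difference of 0.07 after the correction for longest transcript and GC content given further on. Summed over 5 light chain genes the fragments were 9842 and 9695, against 20862 and 38362 over 3 heavy chain genes. Fragments rise with transcript length, so these sums do not compare levels. On deposited FPKM the light chains summed to 846 and 761, against 1374 and 2273 for the heavy chains. On the longest annotated transcripts the order was the other way, at 557 and 494 FPKM against 223 and 368. MYH9 to MYL6 was 1.54 times as large in the YWHAB library (1.46 to 1.63). The light chain transcripts are short, at 1229 to 2821 nt for the longest annotated one, against 6902 to 7762 nt for the heavy chains. After the correction for longest transcript and GC content MYL9 was at -0.57, MYL12A at -0.24 and MYL6B at -0.22. MYL6 was then at 0.23, above its uncorrected 0.11, and MYH9 at 0.52, below its uncorrected 0.73. The part of length in these differences was not tested. MYL12A and MYL12B share 3.94% and 5.86% of their 50-base words with other genes, mostly with each other.

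Talin and vinculin, the adhesion linkers, had the smallest ratios of the 6 genes at 100 FPKM or more, and both were above the vector control. TLN1 (ENSG00000137076, chromosome 9 from 35696948 to 35732395, minus strand) was at 498 FPKM with the vector and 608 FPKM with YWHAB, from 10662 and 14537 fragments, a ratio of 1.22 (1.19 to 1.25). VCL (ENSG00000035403, chromosome 10 from 73995193 to 74121363, plus strand) was at 129 and 147 FPKM, from 5663 and 7217 fragments, a ratio of 1.14 (1.10 to 1.18), and 30.4% of all genes were as far above. TLN1 held 97.8% of the talin fragments in both libraries, with TLN2 at 5.91 and 7.14 FPKM, and the TLN1 to TLN2 ratio differed 1.01 times between them, with an interval that holds equality (0.855 to 1.20). VCL shares 11.1% of its exon bases with AP3M1 on the opposite strand (39.2 and 35.2 FPKM), and ACTN4 shares 14.2% with CAPN12 on the opposite strand, which was under 0.1 FPKM in both libraries. The sources used here do not say whether strand was used in counting. For the other genes, overlaps with genes on the opposite strand were under 1% of the exon bases.

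**Figure D2:**
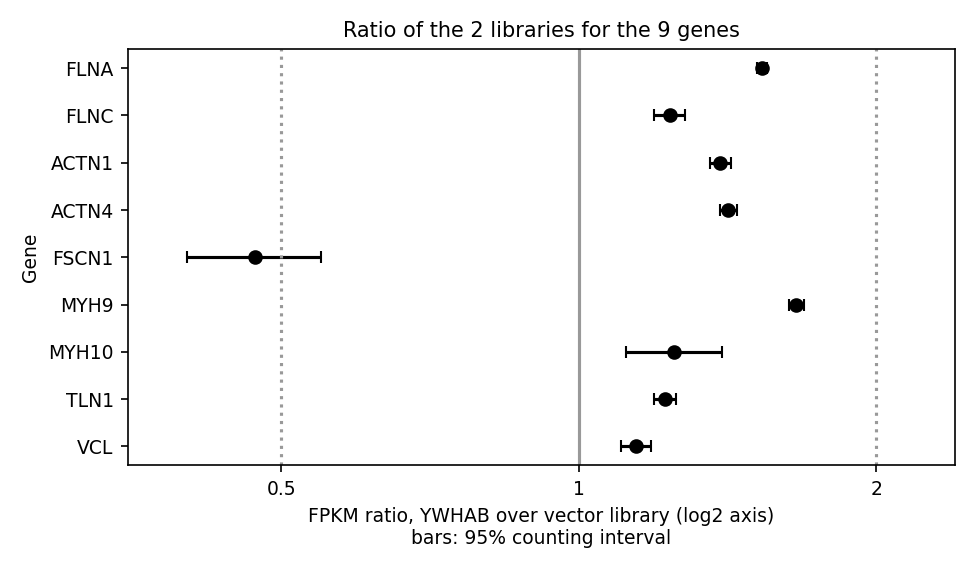
Ratio of deposited FPKM in the YWHAB library over the vector library for each of the 9 genes, on a log2 axis, with bars for the 95% counting interval and dotted lines at ratios of 0.5 and 2. FSCN1 lies at 0.470 with an interval across the 0.5 line, and the other 8 genes lie between 1.14 and 1.66, all short of 2.

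Counting intervals excluded equal levels for all 9 genes, above for 8 and below for FSCN1. At this depth that is common: among all genes compared 27.8% had an interval above and 21.8% an interval below equality. The shares were 44.8% and 35.4% among protein-coding genes averaging 100 FPKM or more. Among all protein-coding genes compared in the group with the longest transcripts they were 47.6% and 13.7%. Together the 9 genes made up 0.881% of all fragments with the vector (109018 fragments, Wilson interval 0.876% to 0.886%) and 1.28% in the YWHAB library (176940 fragments, 1.275% to 1.287%). FLNA, MYH9, ACTN4 and ACTN1 supplied 79.6% of that sum with the vector and 83.3% with YWHAB.

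The order of the levels rests on the gene lengths behind FPKM. The lengths worked out from the deposited values were within 1 nt of the mean over all annotated transcripts for 7 of the 9 genes and within 24.8 nt for ACTN4 and TLN1. That length was 16.0% of the longest transcript for MYH9 (1208 against 7554 nt), 19.6% for TLN1, 40.5% for FLNA and 68.2% for FLNC. On deposited FPKM the order in the vector library was MYH9, FLNA, ACTN4, ACTN1, TLN1, VCL, FLNC, FSCN1 and MYH10. On the longest transcript FLNA came first at 376 FPKM, followed by ACTN4 at 265 and MYH9 at 217, then ACTN1 at 182, TLN1 at 97.6, VCL at 57.2, FLNC at 43.3, FSCN1 at 13.8 and MYH10 at 5.55. In the YWHAB library the same scale gave FLNA at 577, ACTN4 at 376, MYH9 at 359.96, ACTN1 at 252, TLN1 at 119, VCL at 65.4, FLNC at 53.4, MYH10 at 6.92 and FSCN1 at 6.49. On either scale the counting intervals of neighbours were apart in both libraries, except on the longest transcript for MYH10 (6.43 to 7.44) and FSCN1 (5.71 to 7.35) in the YWHAB library. The ratio of the libraries for a gene does not depend on this length.

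Transcript length went with the difference between the libraries, and 8 of the 9 genes, all but FSCN1, have long transcripts. Protein-coding genes in the shortest of 5 equal groups by longest transcript had a median difference of -0.07, and those in the longest group (6003 nt or more) 0.14. FLNA, FLNC, MYH9, MYH10, TLN1 and VCL belong to the longest group, ACTN1 and ACTN4 to the fourth (median 0.07) and FSCN1 to the second (median -0.01). In its own group MYH9 was matched or exceeded by 3.17% of genes, FLNA by 6.56%, ACTN4 by 6.86% and ACTN1 by 8.38%. FLNC, MYH10, TLN1 and VCL were matched or exceeded by 29.9%, 29.5%, 31.0% and 43.7%, and these 4 genes lay between the quartiles of that group (-0.05 and 0.34). FSCN1 was matched or passed downward by 1.48% of its group (34 of 2301 genes). Among the 150 protein-coding genes that are in the longest group and have a mean of at least 100 FPKM, the median difference was 0.22.

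**Figure D3:**
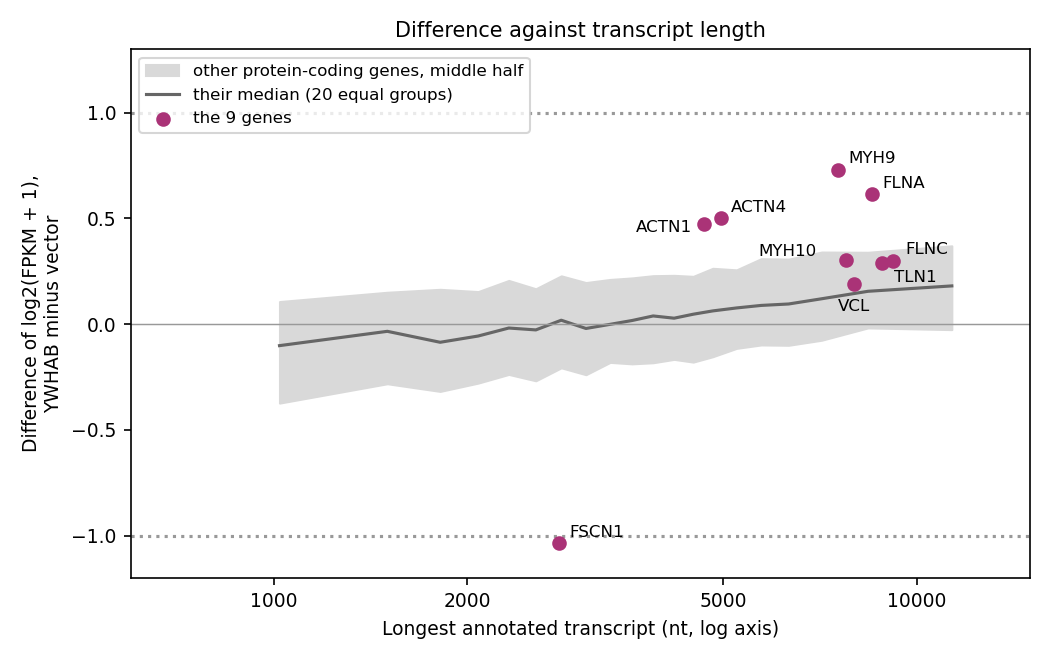
Difference of log2(FPKM + 1), YWHAB minus vector, against the longest annotated transcript (nt, log axis). The line is the median and the band the range from the lower to the upper quartile of the other protein-coding genes in 20 groups by length, and points are the 9 genes. MYH9 (0.73), FLNA (0.61), ACTN4 (0.50) and ACTN1 (0.47) lie above the band, FLNC, MYH10, TLN1 and VCL inside it, and FSCN1 (-1.04) far below it.

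Subtracting a smooth trend on longest transcript and GC content left MYH9 at 0.52, ACTN1 at 0.40, ACTN4 at 0.38 and FLNA at 0.34. The same step left MYH10 at 0.16, TLN1 at 0.06, VCL at 0.04 and FLNC at 0.01, and FSCN1 at -1.11. The median of the 9 genes then was 0.16 in place of 0.30. With the trend fitted on the mean transcript length, MYH9 was at 0.73, TLN1 at 0.23 and FLNC at 0.05. The part of transcript length in the differences was not tested.

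**Figure D4:**
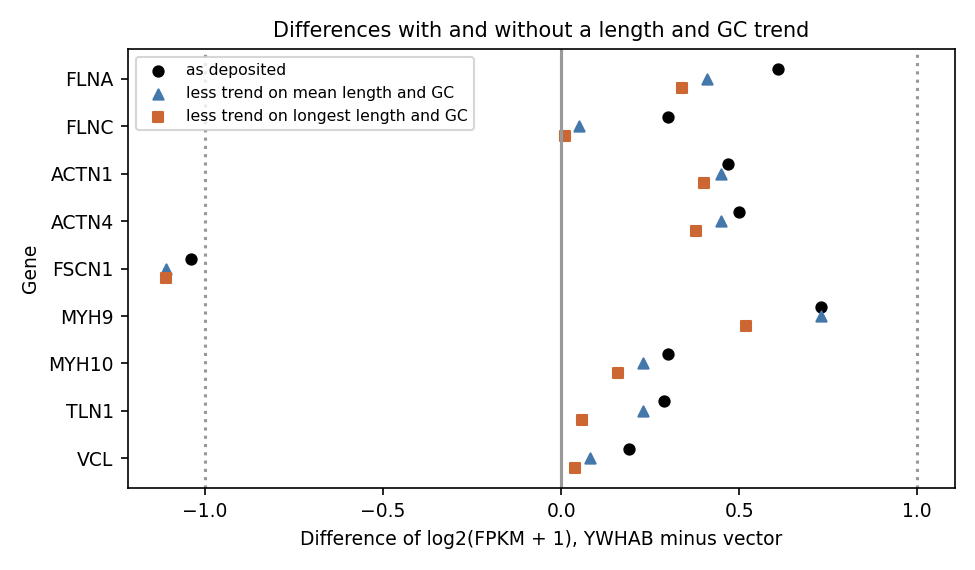
Difference of log2(FPKM + 1), YWHAB minus vector, for the 9 genes as deposited (circles), less a trend on mean transcript length and GC content (triangles), and less a trend on longest transcript and GC content (squares). The last step leaves MYH9, ACTN1, ACTN4 and FLNA between 0.34 and 0.52, FLNC, TLN1 and VCL at 0.06 or below, and FSCN1 at -1.11.

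Promoter windows are shown for genes among the higher members where a motif of actin-responsive transcription occurs. RefSeq entries (GRCh38.p14) covered all members but FSCN1, with 12 windows of 250 bases before a start for 8 genes. All motifs were searched on both strands. Serum response factor, which with its actin-regulated coactivators drives many cytoskeletal genes, binds the CArG box, found in 1.16% of 35116 RefSeq promoter windows of this length. Among the 12 windows it occurred in 2, the FLNA window, 94 bases before the start, and the window of an internal ACTN1 start, 171 bases before it. The letters GGAATG (or CATTCC on the other strand), the core of TEAD sites, occurred in 11.9% of all windows and in 5 of the 12, 1 window each for MYH9, MYH10, FLNC, VCL and ACTN1. The motifs were chosen after the windows had been read, and a match is a description of letters only. Matches are in capitals in the windows of FLNA (chrX:154374635-154374884, minus strand), the internal ACTN1 start (chr14:68977567-68977816, minus strand, which holds both motifs) and MYH9 (chr22:36387968-36388217, minus strand):
FLNA: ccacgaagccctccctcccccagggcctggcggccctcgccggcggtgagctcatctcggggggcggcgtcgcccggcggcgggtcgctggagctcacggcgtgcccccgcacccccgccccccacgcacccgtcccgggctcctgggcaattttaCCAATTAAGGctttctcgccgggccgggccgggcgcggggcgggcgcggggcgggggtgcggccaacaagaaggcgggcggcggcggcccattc
ACTN1: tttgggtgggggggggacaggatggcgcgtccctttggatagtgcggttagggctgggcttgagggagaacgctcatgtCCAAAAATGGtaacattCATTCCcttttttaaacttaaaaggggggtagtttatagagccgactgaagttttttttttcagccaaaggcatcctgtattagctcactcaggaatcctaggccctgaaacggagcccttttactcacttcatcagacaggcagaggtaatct
MYH9: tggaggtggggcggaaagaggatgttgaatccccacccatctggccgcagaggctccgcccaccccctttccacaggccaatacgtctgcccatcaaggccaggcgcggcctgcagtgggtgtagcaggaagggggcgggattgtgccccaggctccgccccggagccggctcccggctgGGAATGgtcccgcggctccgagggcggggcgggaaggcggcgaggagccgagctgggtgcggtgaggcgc
The common CCAAT letters were in 32.0% of all windows and in 5 of the 12. The GC box letters GGGCGG were in 42.6% and 9 of the 12, and the TATA box letters TATAAA in 10.7% and 1 of the 12. The CArG match of FLNA contains the letters CCAAT. SRF itself was at 21.0 and 22.6 FPKM (ratio 1.08, 0.992 to 1.17). Its coactivator MRTFA was at 9.70 and 12.0 FPKM (ratio 1.23, 1.06 to 1.44). The coactivator MRTFB was at 5.37 and 7.99 FPKM (ratio 1.49, 1.25 to 1.78). After the trend on longest transcript and GC content the differences of MRTFA and MRTFB, 0.28 and 0.50, were 0.18 and 0.37. The part of length was not tested.

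Other crosslinkers differed in both directions. Of 17 relatives listed 10 were measured, 0 were 2-fold higher and 1 was 2-fold lower, with a median difference of 0.01. The 2-fold lower gene was LCP1, which encodes L-plastin, an actin bundler of white blood cells that many tumour lines also make. LCP1 was at 65.7 FPKM with the vector and 13.2 FPKM with YWHAB (ratio 0.201, 0.176 to 0.228). Of 6 leukocyte markers CD14 alone reached a mean of 1 FPKM, and their summed level was 2.84 and 2.06 FPKM. PTPRC had 1 and 0 fragments, and CD3E and MS4A1 were listed at 0 in both libraries. The other widely made plastin, PLS3, was at 205 and 188 FPKM. LIMA1, which bundles filaments and slows their breakdown, was at 196 and 121 FPKM. SPTBN1, a spectrin of the membrane skeleton, was at 46.2 and 77.3 FPKM, and SVIL, supervillin, which binds myosin II and actin, at 39.5 and 65.8. The pseudogene SVIL2P holds all of the 4.71% of SVIL 50-base words found elsewhere.

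Of 21 listed partners and regulators of myosin II 20 were measured and 0 passed in either direction, 10 being above and 10 below the vector library, with a median of 0.05. CDC42BPA and CDC42BPB, which encode the MRCK kinases, were at 14.9 and 24.7 and at 102 and 161 FPKM. CIT, citron kinase of the cytokinetic furrow, was at 54.8 and 86.01 FPKM. ROCK1 and ROCK2, kinases that activate myosin II, were at 27.3 and 33.1 and at 23.5 and 31.9 FPKM, while MYLK, the light chain kinase, was at 25.1 and 27.1 with an interval of the ratio that holds equality (0.996 to 1.17). These 6 kinase genes, 3 of them named after their values were seen, belong to the group with the longest transcripts, where 47.6% of genes had an interval above equality, and the part of length was not tested. RHOA was at 901 and 866 FPKM.

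Of 36 adhesion plaque genes listed 35 were measured, 24 were above and 11 below the vector library, 0 passed the 2-fold line and the median was 0.15. Over all genes compared 53.2% were above, and 69.1% in the group with the longest transcripts, and the median of the list was 0.06 after either length and GC correction. The tensins TNS3 and TNS2, which tie integrins to actin, were at 46.5 and 66.3 and at 25.4 and 35.6 FPKM. Zyxin (ZYX), which repairs strained stress fibres, was at 126 and 139.7 FPKM, and the scaffold paxillin (PXN) at 82.1 and 83.5 (ratio 1.02, 0.956 to 1.08).

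The cytoplasmic actins ACTB and ACTG1 were higher in the YWHAB library, and ACTA2, smooth muscle actin, was low in both. ACTB was at 2947 FPKM with the vector and 3945 FPKM with YWHAB (ratio 1.34, 1.32 to 1.36), and ACTG1 at 4734 and 6248 (ratio 1.32, 1.31 to 1.33). Their longest transcripts are 2245 and 2256 nt, and after the length and GC trend their differences were 0.43 and 0.42; the part of length was not tested. ACTB shares 4.84% and ACTG1 2.30% of its 50-base words with other loci. The FLNA to ACTB ratio was 1.14 times as large in the YWHAB library (1.12 to 1.17). Of 12 measured genes among actins, tropomyosins and calponins 0 passed the 2-fold line and the median was 0.07. The contractile gene TAGLN was at 6.33 and 4.26 FPKM. ACTA2 had 18 and 11 fragments, a ratio of 0.548 with an interval that holds equality (0.234 to 1.22).

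Genes of actin assembly and turnover were spread about 0, with a median of 0.01 over 46 measured of 47 and 0 past the 2-fold line. Profilin 2 (PFN2), which feeds actin monomers to growing ends, was at 60.6 and 34.1 FPKM, and gelsolin (GSN), which severs and caps filaments, at 65.8 and 37.7. BRK1, a small subunit of the WAVE complex, was at 150.5 and 104 FPKM. The formin FMNL1 was at 85.3 and 133 FPKM.

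**Figure D5:**
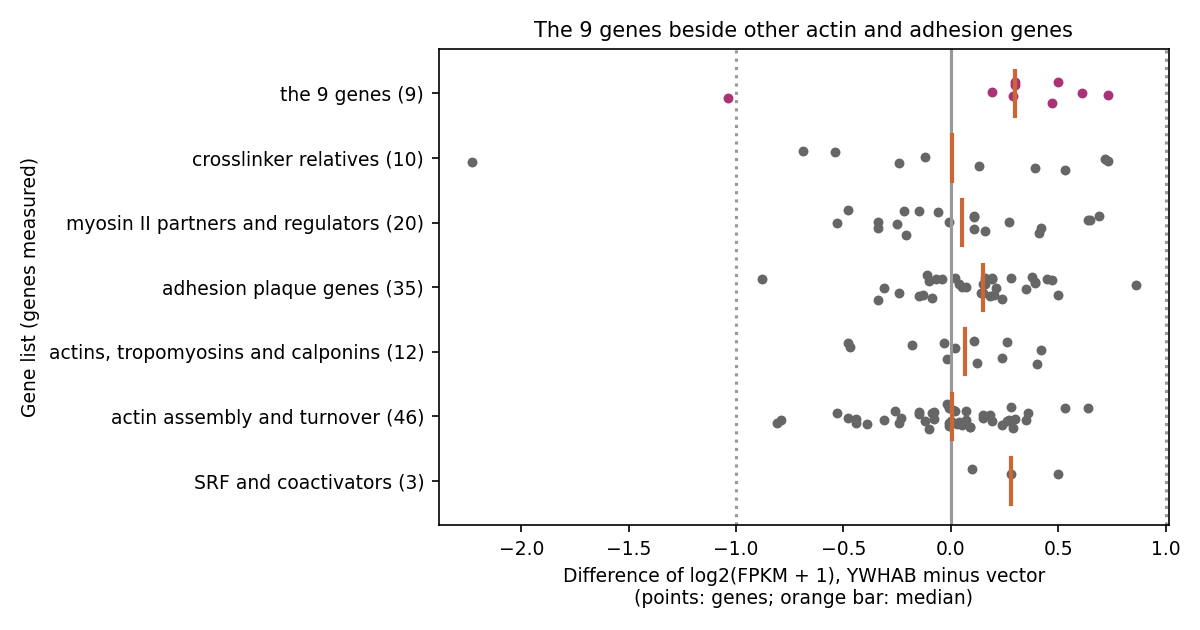
Difference of log2(FPKM + 1), YWHAB minus vector, for the 9 genes and for the measured genes of 6 related lists, 1 point per gene, with the median as an orange bar and dotted lines at -1 and 1. The median is 0.30 for the 9 genes and between 0.01 and 0.28 for the lists, and LCP1 (-2.23) and FSCN1 (-1.04) are the points past -1.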

How the data were processed

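The authors deposited FPKM values per Ensembl gene for both libraries, per the labels of both columns. HISAT2 2.0.5 and hg38 are named in the submitters' processing notes; the counter, annotation release, strand use, treatment of multi-mapped reads and any filters: not given in the sources used here. Fragment counts were worked out from the steps of low FPKM values times gene length, and the value pairs of all 26770 genes above 0 gave whole counts over whole lengths (relative tolerance 1e-11). For 14.1% of them the smallest fitting length was multiplied to come closest to the GENCODE 29 mean, which was needed for none of the 9 genes. GENCODE 29 held 96.3% of the identifiers.

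The difference is log2(FPKM + 1), YWHAB minus vector, which understates the change of low genes, over genes averaging 1 FPKM or more. Intervals of 95% are exact for ratios of libraries, Wald on the log scale for ratios of gene pairs, exact Poisson for levels and Wilson for shares. They cover counting error only, and not the spread between cultures or libraries. PCR copies are not independent, so counting error itself may be understated. A count of 0 allows up to 3 fragments. Trends were regression splines over protein-coding genes (statsmodels 0.14.6, Python 3.11.15). Alternatives changed the pseudocount, the filter, the scaling, the gene type and the length correction. The 2-fold call, the trend fit and the interval for ratios of libraries were tested on simulated data. The recovery of counts and lengths from deposited values and the other intervals were not.

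The 9 genes and all lists were chosen with earlier results of these data known. Named were all 9 genes and, per list, those past 2-fold and the 4 largest differences; PLS3, the light chains other than MYL9, ROCK1, ROCK2, MYLK, RHOA, FERMT2, ZYX, PXN and family members were named after their values were seen. Of the marker lists, 2 of 8 adipocyte genes (LPL, PPARG), 1 of 6 leukocyte genes (CD14) and 2 of 6 fibroblast genes (COL1A1, PDGFRB) reached a mean of 1 FPKM.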

Additional observations from a re-analysis of the deposited data

How the results depend on the processing

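With 1 library per group, no replicate could be left out. No paired analysis was possible because each group has 1 library. The count of the 9 genes past 2-fold (0 higher, 1 lower) was the same in all 8 alternatives. Their median of 0.30 was 0.35 with FPKM rescaled to equal totals, 0.26 after centring on the median ratio of genes at 10 FPKM or more, 0.23 after length and GC correction and 0.16 after that correction on the longest transcript, an alternative added after seeing the data, as was recomputing levels on the longest transcript. The direction of all 9 genes held in all 8 alternatives, with FLNC between 0.01 and 0.34, VCL between 0.04 and 0.23, TLN1 between 0.06 and 0.33 and MYH9 between 0.52 and 0.77; the cause was not tested. Of all values for single genes among the 9, 22 moved beyond the counting interval and 50 did not. Over all genes, 92 were 2-fold higher and 265 lower. The higher count was 222 with a pseudocount of 0.1, 155 with no filter, 40 at a mean of 5 FPKM or more, 208 after length and GC correction, 34 in protein-coding genes and 228 after correction on the longest transcript. The lower count was 471 with a pseudocount of 0.1, 112 at a mean of 5 FPKM or more and 167 in protein-coding genes, with fewer genes tested in the filtered settings; after length and GC correction it was 199 and, on the longest transcript, 192. Medians near 0 changed sign: crosslinker relatives to -0.01 with no filter and -0.04 with the median ratio set to 0, myosin II partners to -0.01 with a mean of at least 5 FPKM, actin assembly to -0.04 and all genes compared to -0.01 with the median ratio set to 0. Counting fragments in place of FPKM put FLNA above ACTB, at ratios of 1.18 with the vector and 1.35 with YWHAB, because FLNA is longer.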

Other observations

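The kindlins, which activate integrins together with talin, differed in direction. FERMT1, the kindlin of epithelial cells, was at 7.98 FPKM with the vector and 15.3 FPKM with YWHAB (ratio 1.91, 1.67 to 2.20). FERMT2, the widely made kindlin, was at 54.3 and 45.7 FPKM (ratio 0.842, 0.781 to 0.908). FERMT3, the kindlin of blood cells, was at 13.1 and 6.63 FPKM, from 180 and 102 fragments (ratio 0.508, 0.394 to 0.651). None passed the 2-fold line, FERMT1 with a difference of 0.86 and FERMT3 with -0.88, and FERMT2 remained the most abundant in both libraries. After the trend with longest transcript and GC content FERMT1 was at 0.82 and FERMT3 at -0.92.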
